A study of Bos taurus with 6 samples.

Results

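In all, 27 bovine genes of the ribosome, of protein synthesis and of RNA processing were followed in MAC-T cells, an established line of bovine mammary epithelial cells (bMECs), after miR-375 was blocked. They are all the genes whose symbol begins with 1 of 23 family prefixes (RPL and RPS for ribosomal proteins, MRPL and MRPS for their mitochondrial counterparts, EIF for initiation factors, RBM, HNRNP, DHX, POLR, THOC, UTP and others), without the RPS6K kinases, among the 1410 genes whose identifier could be paired with a symbol. That gave 27 of the 29154 genes counted in each library. The RefSeq gene list of the bovine assembly ARS-UCD2.0 has 507 protein-coding symbols that begin in these ways, so the 27 are 5.33% of the families. Of its 85 RPL and RPS symbols 7 are here, and of its 78 MRPL and MRPS symbols 5 are here, while the other members of these families were not analysed here.

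The study had 2 groups, both of MAC-T cells at 48 h after transient transfection. The miR-375 inhibitor group received 100 nM of an RNA oligonucleotide made against miR-375, and the inhibitor NC group received 100 nM of a negative control oligonucleotide, so both groups carried the transfection reagent and an oligonucleotide. Each group had 3 libraries of poly(A)-selected mRNA. All cells came from 1 line, and nothing in the sources says whether the 3 libraries of a group came from separate passages or dates, so the p-values measure the spread between these libraries, which may be technical. Counts on genes summed to 14479278, 16213226 and 16047812 in inhibitor NC replicates 1, 2 and 3, and to 15228121, 14903099 and 16324556 in miR-375 inhibitor replicates 1, 2 and 3.

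A ribosome is built from ribosomal RNA and some scores of proteins, and cells keep the mRNAs of these proteins abundant. Mitochondria have a ribosome of their own, whose proteins are encoded in the nucleus and imported. Initiation factors bring mRNA, initiator tRNA and the small subunit together, and RNA-binding proteins, helicases and export factors carry the mRNA from transcription to that point. The secretory cells of the mammary gland use this machinery heavily in lactation. A microRNA such as miR-375 pairs with sites in mRNAs and lowers their level or their translation, and an inhibitor oligonucleotide blocks it. RNA-seq reads the mRNA level only. Many ribosomal protein mRNAs are held back or released at translation, which such counts do not see.

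None of the 27 mRNAs passed the test. By edgeR's quasi-likelihood F test with Benjamini-Hochberg adjustment over all 20755 genes with a count, 0 of 27 had an adjusted p under 0.05, where 350 of all genes did (1.69%), 101 higher and 249 lower in the miR-375 inhibitor group. That background depended on the processing, since DESeq2 called 75 genes, and edgeR called 0 once genes with fewer than 10 counts in total were left out (1972 had an unadjusted p under 0.05). The unadjusted p was under 0.05 for 3 of the 27 (11.1%), RPL10, RPL39 and MRPS6, all 3 of them higher. Among all genes tested, 10.6% had such a p, and 4.67% had it on the higher side. DESeq2 called 0 of the 23 for which it gave an adjusted p, with 1 unadjusted p under 0.05 among the 27. The log2 fold changes of the 27 (miR-375 inhibitor minus inhibitor NC) ran from -0.15 for RBM41 to 0.24 for MRPS6, with 17 above 0 and 10 below, and their median was 0.014, beside a median of -0.0019 over all genes tested.

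The differences were small as well as uncalled. The 95% interval of the fold change lay within 1.2-fold in either direction for 22 of the 27 genes and within 1.5-fold for all 27, the widest bound being a log2 fold change of 0.42 for MRPS6. Those bounds come from the edgeR fit, which shares its estimate of the spread across genes. With DESeq2, 20 of the 27 intervals lay within 1.2-fold and 26 within 1.5-fold, the exception being MRPS6, whose interval there ran from -0.19 to 0.67 on the log2 scale. The median size of the log2 fold change, sign aside, was 0.067 for the 27 and 0.094 for the 14137 genes whose mean reached 10 normalized counts. These sets were not matched for count, since the lowest of the 27, EIF5A2, had group means of 99.4 and 97.5. The medians therefore do not show whether the 27 differed less than other genes of like count. In the plot of differences with their edgeR intervals, 3 leave out 0, where 1 did with DESeq2.

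**Figure D1:**
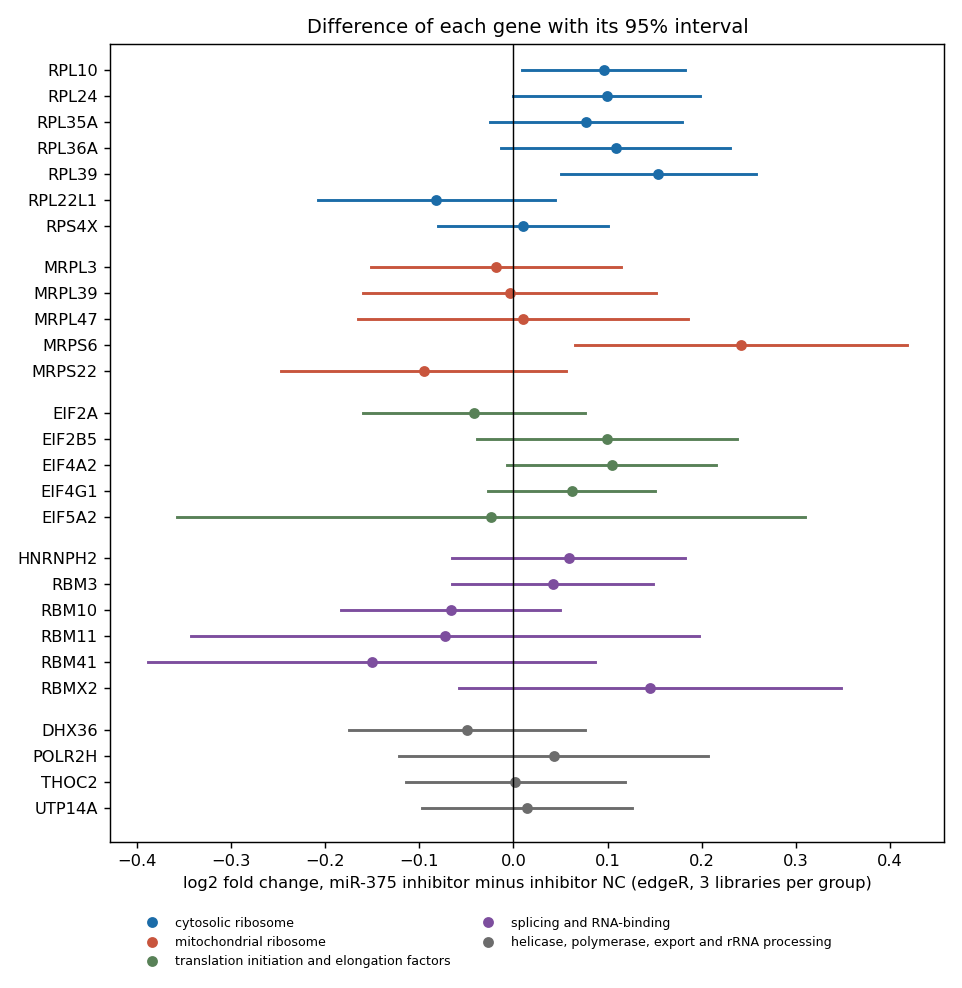
Log2 fold change (horizontal axis, miR-375 inhibitor minus inhibitor NC) of each of the 27 genes, with points for the edgeR estimate and bars for its 95% interval from 3 libraries per group, coloured by role. The intervals of RPL10, RPL39 and MRPS6 lie to the right of 0, the other 24 include it, and no bar reaches beyond 0.42.

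Counts below are normalized counts, which are counts divided by the library's effective size (its total times the TMM factor) and multiplied by the mean effective size. Since no gene lengths came with the counts, a gene is compared with itself across libraries, and levels are not compared between genes. The cytosolic ribosomal proteins are 6 of the large subunit (RPL10, RPL24, RPL35A, RPL36A, RPL39 and RPL22L1) and 1 of the small subunit (RPS4X). Log2 fold changes were above 0 for 6 of these 7 and below 0 for RPL22L1, with a median of 0.096. For 3 of the 7 every miR-375 inhibitor library lay above every inhibitor NC library in normalized counts, whereas 9.08% of the 14137 genes whose mean reached 10 showed that pattern. With counts divided by the library total alone, the groups of RPL10 and RPL24 overlapped. All 7 intervals stayed within 1.2-fold by edgeR, and 6 of the 7 by DESeq2.

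RPL39 (ENSBTAG00000049833), a small protein at the tunnel where the new peptide leaves the ribosome, had 3577.5, 3747.1 and 3570.9 normalized counts in inhibitor NC replicates 1, 2 and 3 and 4102.3, 4113.0 and 3908.6 in miR-375 inhibitor replicates 1, 2 and 3. The groups did not overlap. The means were 3632 ± 99.9 and 4041 ± 115 (SD, n = 3 each), a difference of 11.3%. Its log2 fold change was 0.15 with an SE of 0.052 and an interval from 0.051 to 0.26, and the adjusted p was 0.141 by edgeR.

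RPL10 (ENSBTAG00000007454) joins the large subunit late in its assembly, close to the site of peptide bond formation. It had 15266.2, 14684.6 and 14112.0 normalized counts under inhibitor NC and 15312.5, 16398.5 and 15373.4 under the miR-375 inhibitor. The groups were parted by a narrow gap, since inhibitor NC replicate 1 and miR-375 inhibitor replicate 1 nearly met. The means were 14688 ± 577 and 15695 ± 610 (SD, n = 3 each), 6.86% apart, and the log2 fold change was 0.096 (SE 0.043, adjusted p of 0.384 by edgeR), or 0.063 without miR-375 inhibitor replicate 2.

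RPL24 (ENSBTAG00000013461), a large subunit protein that takes part in a bridge to the small subunit, had 5242.1, 5086.7 and 4927.0 normalized counts under inhibitor NC and 5684.9, 5374.8 and 5279.0 under the miR-375 inhibitor. Here too the groups did not overlap, and the lowest miR-375 inhibitor library was close to the highest inhibitor NC library. The log2 fold change was 0.099 (SE 0.050, adjusted p of 0.474 by edgeR), and its interval reached from -0.0005 to 0.20.

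RPL35A (ENSBTAG00000014208) and RPL36A (ENSBTAG00000019253), both of the large subunit, had estimates of similar size with groups that overlapped. RPL35A had 4737.3, 4719.9 and 4310.9 normalized counts under inhibitor NC and 4942.5, 4876.8 and 4707.5 under the miR-375 inhibitor, for a log2 fold change of 0.077 (SE 0.051), or 0.034 without inhibitor NC replicate 3. RPL36A had 1708.3, 1805.4 and 1651.6 against 1937.9, 1918.4 and 1714.4, for a log2 fold change of 0.11 (SE 0.061), or 0.17 without miR-375 inhibitor replicate 3. In both genes inhibitor NC replicate 3 was the lowest library. The description attached to the RPL36A identifier reads L36a-like, so its symbol is uncertain.

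RPS4X (ENSBTAG00000018800), a small subunit protein encoded on the X chromosome, stood closest to 0 in this list. It had 9720.6, 9465.5 and 9383.7 normalized counts under inhibitor NC and 9673.9, 9858.6 and 9229.6 under the miR-375 inhibitor, and the groups overlapped. The log2 fold change was 0.0097, with an interval from -0.081 to 0.10. RPL22L1 (ENSBTAG00000007394), a paralog of the large subunit protein RPL22, was the only 1 of the 7 below 0. Its 1549.6, 1504.4 and 1642.0 normalized counts under inhibitor NC stood against 1548.6, 1362.6 and 1524.3 under the miR-375 inhibitor, for a log2 fold change of -0.082 (SE 0.063), which was -0.027 without miR-375 inhibitor replicate 2 and -0.046 without inhibitor NC replicate 3.

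**Figure D2:**
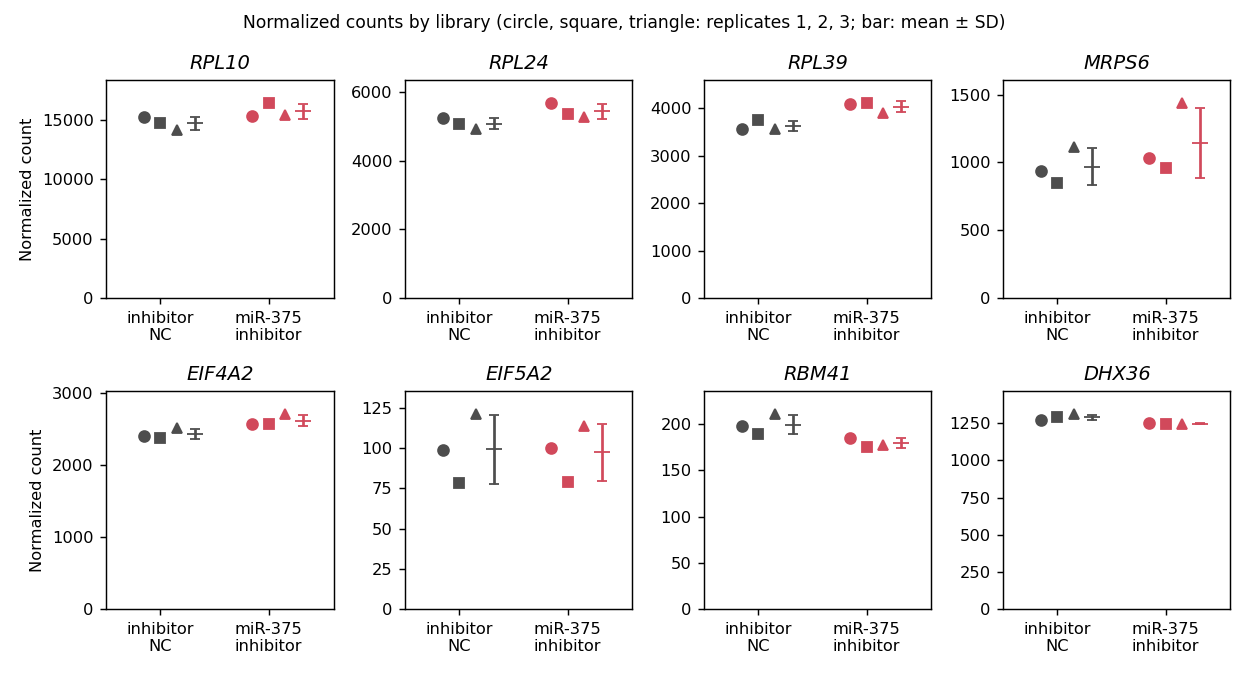
Normalized counts (vertical axes, linear and starting at 0) of 8 genes in each library, with inhibitor NC in grey and miR-375 inhibitor in red. Circles, squares and triangles are replicates 1, 2 and 3, and bars are the mean ± SD of 3 libraries. The groups do not overlap for RPL10, RPL24, RPL39 and EIF4A2 (higher) or RBM41 and DHX36 (lower), while those of MRPS6 and EIF5A2 do.

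The same libraries were high or low for several cytosolic ribosomal proteins at once. Taking each gene's log2 deviation from its own mean over the 6 libraries, the median over the 7 genes was 0.0079, -0.015 and -0.10 in inhibitor NC replicates 1, 2 and 3, and 0.069, 0.050 and 0.0044 in miR-375 inhibitor replicates 1, 2 and 3. All 7 genes were above their own mean in miR-375 inhibitor replicate 1, and 1 of 7 was in inhibitor NC replicate 3. Inhibitor NC replicate 1 stood above miR-375 inhibitor replicate 3, so on this measure the groups overlapped. The 7 genes together took 0.271%, 0.266% and 0.257% of all counts under inhibitor NC and 0.276%, 0.280% and 0.268% under the miR-375 inhibitor. The means were 0.265% ± 0.0070 and 0.275% ± 0.0065 (SD, n = 3 each), and these groups overlapped as well. Their difference was 0.0099 percentage points, or 0.0062 without inhibitor NC replicate 3. In bulk libraries such as these, a change in the make-up of the cells and a change in the mRNA of each cell cannot be told apart.

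The 5 mitochondrial ribosomal proteins scattered around 0, with 2 estimates above and 3 below and a median of -0.0041. MRPL3, MRPL39 and MRPL47, of the large subunit of the mitochondrial ribosome, had log2 fold changes of -0.019, -0.0041 and 0.0096. Their groups overlapped in each case. MRPL3 (ENSBTAG00000030942), for example, had 1038.4, 1134.7 and 1061.4 normalized counts under inhibitor NC and 1062.6, 1094.7 and 1036.9 under the miR-375 inhibitor. MRPS22 (ENSBTAG00000047608), of the small subunit, had 717.8, 653.6 and 716.9 against 645.6, 658.7 and 649.8. That was a log2 fold change of -0.095 (SE 0.076), with inhibitor NC replicate 2 inside the range of the miR-375 inhibitor libraries.

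MRPS6 (ENSBTAG00000012594), also of the small mitochondrial subunit, had the highest estimate of the 27 and the highest ratio between libraries, 1.695 from the lowest to the highest. It had 937.2, 847.9 and 1117.1 normalized counts in inhibitor NC replicates 1, 2 and 3 and 1031.7, 957.1 and 1437.3 in miR-375 inhibitor replicates 1, 2 and 3. Replicate 3 was the highest library in both groups, replicate 2 the lowest in both, and the groups overlapped. The means were 967 ± 137 and 1142 ± 258 (SD, n = 3 each), and the coefficients of variation (CV, the SD as a percentage of the mean) were 14.2% and 22.6%, where counting error alone gives 3.08%. The log2 fold change was 0.24 (SE 0.088, interval 0.065 to 0.42), and the adjusted p was 0.204 by edgeR. With DESeq2, or once low-count genes were left out, the interval included 0. Without miR-375 inhibitor replicate 3 the log2 fold change was 0.041. Without inhibitor NC replicate 3 it was 0.36 with an adjusted p of 0.00014, and without miR-375 inhibitor replicate 2 it was 0.35 with an adjusted p of 0.00211, so both the call and the estimate moved with single libraries.

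Among the translation factors, 3 estimates were above 0 and 2 below, with a median of 0.062. EIF4A2 (ENSBTAG00000014724), an RNA helicase of the complex that binds the mRNA cap, had 2405.9, 2379.0 and 2514.3 normalized counts under inhibitor NC and 2575.2, 2568.7 and 2702.6 under the miR-375 inhibitor. Every miR-375 inhibitor library was above every inhibitor NC library. The means were 2433 ± 71.7 and 2615 ± 75.5 (SD, n = 3 each), 7.50% apart, and the log2 fold change was 0.10 (SE 0.055, adjusted p of 0.515 by edgeR). EIF4G1 (ENSBTAG00000012881), the scaffold of the same cap-binding complex, had 13391.8, 13921.4 and 15078.4 against 14916.0, 14299.4 and 15029.4. Its highest library was an inhibitor NC library, and the log2 fold change was 0.062 (SE 0.044), with 0.025 without inhibitor NC replicate 1 and 0.11 without inhibitor NC replicate 3.

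EIF2B5 (ENSBTAG00000011414) encodes the catalytic subunit of the exchange factor that recharges eIF2, the carrier of the initiator tRNA. It had 886.1, 900.3 and 866.6 normalized counts under inhibitor NC and 912.3, 987.5 and 943.2 under the miR-375 inhibitor. The groups did not overlap, and the log2 fold change was 0.10 (SE 0.069). EIF2A (ENSBTAG00000009106), a separate initiation factor and not a subunit of eIF2, had 1676.4, 1686.3 and 1704.4 against 1651.6, 1608.4 and 1661.9. Here the groups did not overlap in the lower direction, for a log2 fold change of -0.042 (SE 0.059).

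EIF5A2 (ENSBTAG00000010550), a paralog of the elongation factor EIF5A, had the fewest counts of the 27 and the widest interval by edgeR. It had 99.05, 78.12 and 120.9 normalized counts under inhibitor NC and 99.88, 78.79 and 113.7 under the miR-375 inhibitor. As for MRPS6, replicate 3 was the highest and replicate 2 the lowest in both groups, and here same-numbered libraries of the 2 groups had nearly equal counts. The log2 fold change was -0.023, with an interval from -0.36 to 0.31.

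The 6 splicing and RNA-binding genes divided evenly, with 3 estimates above 0, 3 below and a median of -0.013. RBM41 (ENSBTAG00000000955), a protein with an RNA recognition motif, had the lowest estimate of the 27. Its normalized counts were 198.1, 189.6 and 210.2 under inhibitor NC and 185.3, 175.4 and 177.7 under the miR-375 inhibitor. The groups did not overlap, with means of 199 ± 10.3 and 180 ± 5.18 (SD, n = 3 each). The log2 fold change was -0.15 (SE 0.12, adjusted p of 0.711 by edgeR), a difference of -9.92%.

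RBMX2 (ENSBTAG00000014771), a protein of the spliceosome, stood at the other end of this list. It had 267.3, 291.5 and 290.8 normalized counts under inhibitor NC and 311.0, 346.7 and 283.8 under the miR-375 inhibitor. The groups overlapped through miR-375 inhibitor replicate 3, and the log2 fold change was 0.15 (SE 0.10), or 0.068 without miR-375 inhibitor replicate 2. The other 4 were the splicing regulators RBM10, RBM11 and HNRNPH2 and the cold-inducible RNA-binding protein RBM3. Their log2 fold changes were -0.067 for RBM10, -0.073 for RBM11, 0.059 for HNRNPH2 and 0.042 for RBM3. RBM10 (ENSBTAG00000002890) had 2087.5, 2126.5 and 1960.6 normalized counts under inhibitor NC and 2035.7, 1939.4 and 1920.8 under the miR-375 inhibitor. RBM3 (ENSBTAG00000025848) had 3796.9, 3891.0 and 3647.7 against 3943.7, 4115.1 and 3609.5. In all 4 the groups overlapped.

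In the last 4 genes the estimates were close to 0, from -0.049 to 0.043, with a median of 0.0080. DHX36 (ENSBTAG00000006142), a helicase that unwinds G-quadruplexes, had 1271.7, 1287.2 and 1307.1 normalized counts under inhibitor NC and 1249.0, 1242.8 and 1244.2 under the miR-375 inhibitor. Every miR-375 inhibitor library was below every inhibitor NC library, though the log2 fold change was only -0.049 (SE 0.063, adjusted p of 0.796 by edgeR). The SD of the miR-375 inhibitor libraries was 3.24 around a mean of 1245. POLR2H (ENSBTAG00000040199), a subunit shared by the nuclear RNA polymerases, THOC2 (ENSBTAG00000008388), the scaffold of the THO complex of mRNA export, and UTP14A (ENSBTAG00000013671), a protein of the complex that processes the small subunit's ribosomal RNA, had log2 fold changes of 0.043, 0.0019 and 0.014. UTP14A had the lowest ratio between libraries of the 27, though the CVs of DHX36 were lower in both groups. Its normalized counts were 2327.1, 2305.6 and 2239.9 under inhibitor NC and 2324.0, 2276.6 and 2338.5 under the miR-375 inhibitor, so that its highest library was 1.044 times its lowest. The description attached to its identifier names a UTP14A-like locus.

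Across the 27 genes the groups did not overlap for 8. They were higher in the miR-375 inhibitor group for 5 (18.5%: RPL10, RPL24, RPL39, EIF2B5 and EIF4A2) and lower for 3 (11.1%: EIF2A, RBM41 and DHX36). Over all 14137 genes whose mean reached 10 the shares were 9.08% higher and 8.83% lower. All these shares are of TMM-normalized counts. With counts divided by the library total alone, the groups of RPL10, RPL24 and EIF2B5 overlapped. The shares over all genes were not taken on that scale. The highest library was less than 1.2 times the lowest for 22 of the 27 and at least 1.5 times the lowest for MRPS6 and EIF5A2, with a median ratio of 1.14. For 15 genes the CVs of both groups were under 2 times that of counting error, and MRPS6 and EIF4G1 were furthest above it. Inhibitor NC replicate 3 was the lowest library for 9 genes and the highest for 7, and miR-375 inhibitor replicate 2 was the highest for 8 and the lowest for 5.

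**Figure D3:**
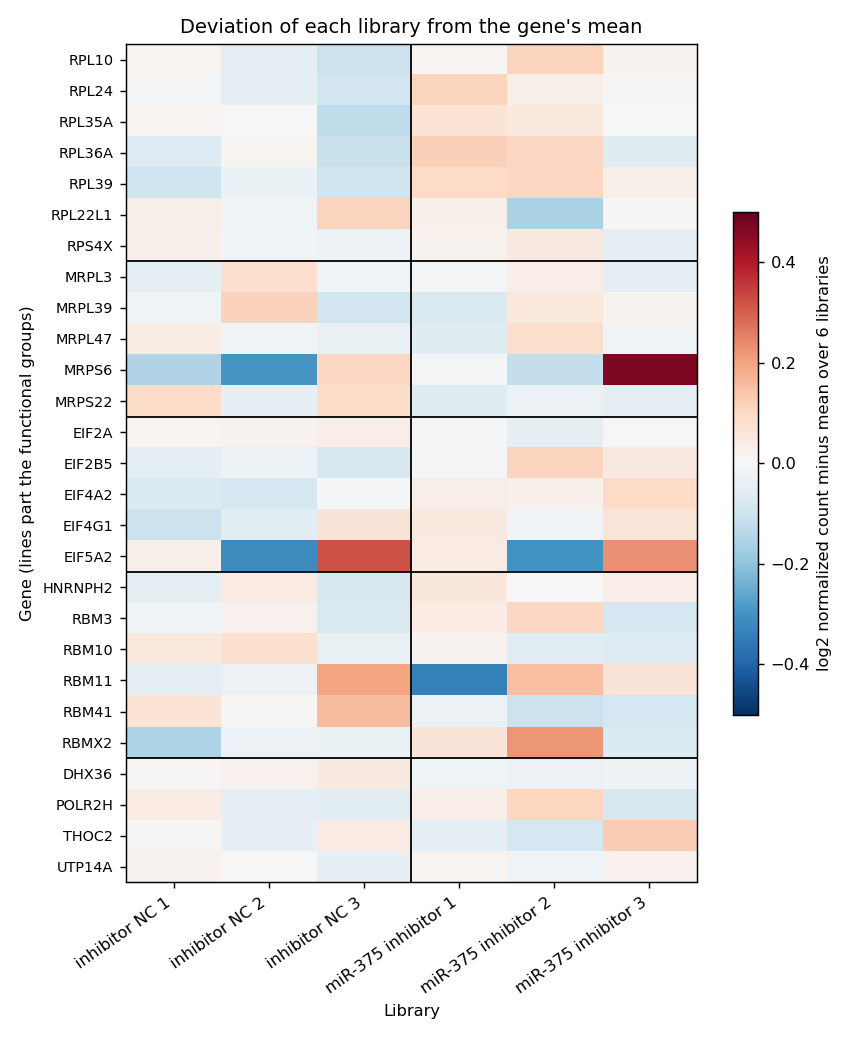
Deviation of each library (columns) from each gene's mean log2 normalized count over the 6 libraries (rows, 27 genes by role), from blue for lower to red for higher. Most cells are pale, 6 of the 7 cytosolic ribosomal protein rows are blue in inhibitor NC replicate 3, and the deepest colours are in MRPS6, EIF5A2 and RBM11, where libraries of 1 group take opposite colours.

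Together the 27 genes took 0.509%, 0.507% and 0.507% of all counts under inhibitor NC and 0.521%, 0.523% and 0.518% under the miR-375 inhibitor. The means were 0.508% ± 0.0013 and 0.521% ± 0.0026 (SD, n = 3 each). These groups did not overlap, with a difference of 0.0129 percentage points, and no test was made because the genes were chosen. The share is weighted to the genes with the most counts, RPL10 and EIF4G1 above all. Scaling moved with the groups too, since the TMM factors were 1.007, 1.006 and 1.009 under inhibitor NC and 0.991, 0.992 and 0.996 under the miR-375 inhibitor. On effective sizes the difference in share was 0.0203 points.

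All 27 genes shared a position that the prefixes did not ask for. RefSeq's list places 16 of them on chromosome 1 and 11 on chromosome X, and 0 elsewhere, as the rows read from the symbol table came almost entirely from these chromosomes. On chromosome 1 the estimates were above 0 for 8 genes and below 0 for 8, with a median log2 fold change of 0.0027, beside -0.021 for the 529 other named genes tested there. On chromosome X they were above 0 for 9 and below 0 for 2, with a median of 0.042, beside -0.0022 for the 318 other named genes there. The unadjusted p was under 0.05 for 1 of the 16 genes and for 14.6% of the others on chromosome 1, and for 2 of the 11 genes and 11% of the others on chromosome X. RPL10, RPL39, RPL36A and RPS4X are all X-linked, so role and chromosome are mixed in these 27.

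Genes of the same pathways whose symbols begin in other ways were read beside them. Of 56 such genes 55 had counts, PABPC5 being at 0 in all 6 libraries. None of the 55 passed the test (0 with an adjusted p under 0.05 by edgeR, and 0 of the 31 with an adjusted p by DESeq2), 30 estimates were above 0 and 25 below, and the median log2 fold change was 0.011. An unadjusted p under 0.05 was seen for 7 (12.7%, beside 10.6% of all genes), 3 of them higher and 4 lower. None of the 7 was among the 14 ribosome biogenesis genes, where the median was 0.018, while 3 were in translation and tRNA modification and 4 in splicing, export and decay.

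LAGE3, a subunit of a complex that modifies tRNA, had 108.6, 87.65 and 102.7 normalized counts under inhibitor NC and 152.4, 122.9 and 126.1 under the miR-375 inhibitor. The groups did not overlap, and the log2 fold change was 0.43 (SE 0.15, adjusted p of 0.163 by edgeR). ADARB1, an enzyme that edits adenosine to inosine in RNA, had 325.9, 285.8 and 282.1 against 264.6, 267.9 and 216.9. Its groups did not overlap either, for a log2 fold change of -0.25 (SE 0.11, adjusted p of 0.319 by edgeR), or -0.16 without miR-375 inhibitor replicate 3. The other 5 were FTSJ1, a tRNA methyltransferase (0.16), RSRC1, a splicing factor with an arginine and serine rich domain (0.17), FMR1, a repressor of translation (-0.13), NXT2, a partner of mRNA export receptors (-0.22), and MBNL1, a splicing regulator (-0.11), where the value given is the log2 fold change. Their adjusted p-values by edgeR lay between 0.402 and 0.459. NXT2 stood at -0.11 without miR-375 inhibitor replicate 3, and MBNL1 at -0.064 without inhibitor NC replicate 3.

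**Figure D4:**
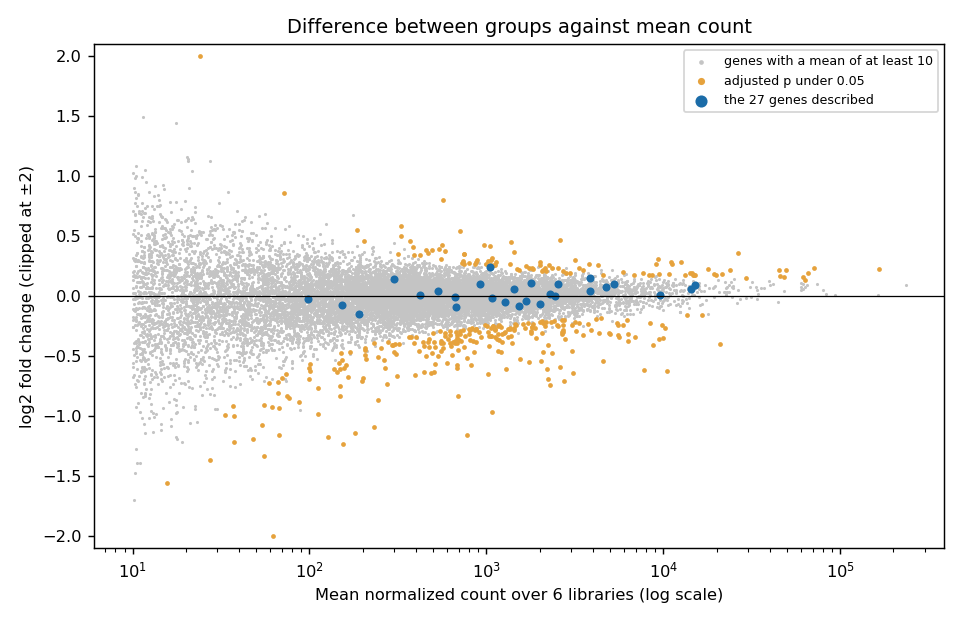
Log2 fold change (vertical axis, drawn at ±2 where it was larger) against mean normalized count over the 6 libraries (horizontal axis, log scale) for the 14137 genes whose mean reached 10, in grey. Genes with an adjusted p under 0.05 are orange and the 27 genes are blue. The blue points lie between -0.15 and 0.24, inside the grey band at every count, and none is orange.

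Ribosomal proteins have many near-identical copies in mammalian genomes, and reads can be split between them. Among the genes without a symbol, 5 have a description that names a cytosolic ribosomal protein and 1 a protein like RBMX2. The copy described as L10 (ENSBTAG00000022275) had 227.9, 233.4 and 200.6 normalized counts under inhibitor NC and 196.7, 251.1 and 184.4 under the miR-375 inhibitor. Its groups overlapped, and its log2 fold change was -0.068 (SE 0.12), of the opposite sign to that of RPL10. The RBMX2-like copy (ENSBTAG00000055095) had 119.3, 124.8 and 129.6 against 132.8, 105.1 and 101.3, with a log2 fold change of -0.14 (SE 0.15), also opposite to RBMX2. The copies described as L36 and S12 had 5 counts or fewer in each library, the copy described as L39 had 0 in all 6, for which up to 3 counts per library cannot be told from 0, and the copy described as L21-like had means of 84.9 ± 9.74 and 83.4 ± 8.80 (SD, n = 3 each). How multiply mapped reads were counted is not given in the sources used here, so values of genes with copies are uncertain. Genes of SNORA63, SNORA81 and SNORD2, families of small nucleolar RNAs with copies in introns of EIF4A2, had between 0 and 16 counts in each library. Such RNAs carry no poly(A) tail.

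Markers of the cell types that the cultures could hold were read beside these results. Of 7 leukocyte genes, CD86 was at 0 in all 6 libraries, and the 7 summed to 5, 7 and 8 counts under inhibitor NC and 12, 7 and 7 under the miR-375 inhibitor, ITGB2 and HCLS1 contributing most. Of 5 stromal, endothelial or erythroid genes, ERG and GATA1 had at most 1 count in a library and BGN at most 4. The sum of that list, 13489, 15158 and 14550 counts against 14640, 14901 and 15957, was nearly all COL6A1 and COL6A2, collagen chains that cultured cells of many types make. COL6A1 had means of 12447 ± 225 and 13394 ± 210 (SD, n = 3 each) and a log2 fold change of 0.11 (SE 0.043, adjusted p of 0.291 by edgeR). Its groups did not overlap. Those of COL6A2 did not overlap either, for a log2 fold change of 0.094 (SE 0.059, adjusted p of 0.628 by edgeR).

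The 6 epithelial genes summed to 1190, 1373 and 1421 counts under inhibitor NC and 1125, 1050 and 1287 under the miR-375 inhibitor, most of them from CXADR. CLDN1, a tight junction protein, fell. It had 213.0, 173.4 and 153.5 normalized counts under inhibitor NC and 132.8, 119.8 and 120.4 under the miR-375 inhibitor, a log2 fold change of -0.53 (SE 0.13, adjusted p of 0.0219 by edgeR). Of the 10 alternatives with an adjusted p 4 kept that call and 6 lost it, the adjusted p running from 0.00067 to 0.491, and DESeq2 gave none. The log2 fold change stayed between -0.63 and -0.40 throughout. The call was lost without inhibitor NC replicate 1 or 2 and without miR-375 inhibitor replicate 1 or 3. Leaving out genes with fewer than 10 counts in total also ended it (adjusted p of 0.176 by edgeR), as did filterByExpr (0.178). With either filter the log2 fold change was -0.53. CXADR had means of 1090 ± 80.6 and 1002 ± 66.2 (SD, n = 3 each) with an adjusted p of 0.567 by edgeR, TP63 had between 4 and 16 counts in a library, LIPH between 17 and 30, and MUC4 and MUC20 at most 7. At these few counts the TP63 groups parted only after scaling, lower under the miR-375 inhibitor. The nearest libraries had 10.65 and 10.51 normalized counts, and each had 10 raw counts. The log2 fold change of TP63 was -0.70 (SE 0.47, adjusted p of 0.648 by edgeR). The estimates of CXADR and LIPH were also below 0, at -0.12 and -0.19. Those of MUC4 and MUC20 were above 0, at 0.69 (SE 0.75) and 0.53 (SE 1.54). Keratins and milk proteins, the defining genes of mammary epithelium, were not paired with identifiers and were not analysed here, so the labelled cell type was checked on these few genes only. The part of CLDN1, TP63, COL6A1 and COL6A2 in the values of the 27 genes was not tested.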

How the data were processed

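For each of the 6 libraries the authors deposited raw counts per gene, made by mapping clean reads with HISAT2 to the bovine genome UMD3.1 and counting them with featureCounts (Subread), per the labels and the study's methods. Versions, strand setting and the treatment of multiply mapped reads are not given in the sources used here. The libraries were made from oligo(dT)-selected mRNA.

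The 6 files were joined on 29154 identifiers, of which 8399 had 0 counts in every library. Symbols came from the study's supplementary gene tables (the first 1997 rows of the longer one, and the shorter one), and no expression value of those tables was used. All genes that fit the prefix rule were named. Of the other pathway genes, up to 8 with the smallest unadjusted p under 0.05 were named. The members and lists were chosen with earlier results of these data known, so counts and medians are given with no list test.

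Groups were compared with edgeR 4.0.16 (R 4.3.3): counts were normalized by TMM, the 20755 genes with 1 count or more somewhere in the 6 libraries were kept, and quasi-likelihood F tests were adjusted by Benjamini and Hochberg's method with a threshold of 0.05. The biological coefficient of variation was 0.0653. The SE is the log2 fold change divided by the square root of F. Alternatives were DESeq2 1.42.0, its size factors in place of TMM, a minimum of 10 counts summed over libraries, filterByExpr, a replicate block, and the omission of each library. The fits were tested on simulated data with the same spread for every gene and with changes larger than those estimated for the genes described. Differences as small as theirs were not covered. Totals were 14479278 to 16324556 counts. No 2 libraries were alike within sampling noise (chi-square per degree of freedom 3.005 to 11.18), so all 6 were kept as separate samples. Intervals and floors of 3 counts cover the libraries and counting only. Chromosomes came from RefSeq's ARS-UCD2.0 list by symbol, and no positions are given because its build differs. The sequences of miR-375, of the transcripts and of the proteins were not used here.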

Additional observations from a re-analysis of the deposited data

How the results depend on the processing

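The count of genes called over all genes moved with nearly every choice. It was 350 as reported, 75 with DESeq2, 358 with DESeq2 size factors in edgeR, 0 when a gene needed 10 counts in total (1972 with an unadjusted p under 0.05), 0 after filterByExpr (1844 with an unadjusted p under 0.05) and 840 with the replicate block. Leaving out 1 library gave between 0 (without inhibitor NC replicate 1, 1543 with an unadjusted p under 0.05) and 756 (without inhibitor NC replicate 3). The cause was not tested.

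Of the 27 genes, 0 were called as reported and under DESeq2, DESeq2 size factors and both stricter filters. Leaving out 1 library gave 0 to 1 call, the call being MRPS6 without inhibitor NC replicate 3 or without miR-375 inhibitor replicate 2. The replicate block gave 2 calls, MRPS6 and RPL39 (adjusted p of 0.00858 and 0.016 by edgeR), and 1 call among the other pathway genes, LAGE3. Same-numbered libraries had deviations that correlated at -0.034, 0.106 and 0.248 over 14137 genes, and inhibitor NC replicates 2 and 3 correlated best with their own number but replicate 1 with miR-375 inhibitor replicate 2 (0.165), so the numbers were not taken to pair the libraries. Intervals within 1.2-fold numbered 18 to 22 of 27 over these fits, a comparison added after seeing the data. The share of counts taken by the 27 genes differed by 0.0129 points on totals and by 0.0203 points on effective sizes.

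Of 377 single-gene values with an adjusted p over 35 genes, 348 kept their sign and their side of the threshold. Signs turned, for 10 uncalled genes near 0, in 18 of them. Leaving out 1 library gave log2 fold changes of -0.0113 to 0.0383 for RPS4X, -0.0447 to 0.0199 for MRPL3, -0.0504 to 0.057 for MRPL39, -0.0332 to 0.0414 for MRPL47, -0.1737 to 0.1473 for EIF5A2, -0.0014 to 0.0947 for RBM3, -0.1667 to 0.0602 for RBM11, -0.0021 to 0.0939 for POLR2H, -0.0636 to 0.042 for THOC2 and -0.0019 to 0.0254 for UTP14A. The replicate block gave -0.0003 for THOC2. Without inhibitor NC replicates 2 and 3 in turn, HNRNPH2 stood at 0.0956 and 0.033 and RBM10 at -0.0423 and -0.1007. Depth limits EIF5A2, RBM11, RBM41 and RBMX2 most, whose counts are the lowest of the 27.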
